A study of Mus musculus with 76 samples.

Results

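C/D box small nucleolar RNAs (snoRNAs) were taken as every gene whose mouse symbol in the GENCODE M21 annotation begins with Snord. The rule gave 99 genes under 98 symbols (Snord80 names a pair of genes) of the 49585 genes in the count tables, and no measured value entered it. Reads were counted on 49 of the 99 genes, and the other 50 were at 0 in all 76 libraries. In the knockout comparisons 42 of the 49 had enough reads to be tested in at least 1 population. Of these, 16 passed the test at least once, in 29 calls. Of all genes tested, 4.63% to 31.4% were called per comparison and direction, and the counts of called members are given below beside these shares. By an interaction test the KO effect differed between the lines for Snord118, Snord17 and Snord55. The calls were 1 of 34 members tested in total liver, 2 of 42 in S0 and 3 of 39 in S1. The shares of all genes are given with that test below. Only the Snord17 differences held with each sample left out.

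C/D box snoRNAs are short nucleolar RNAs named after conserved sequence elements, box C near the 5' end and box D near the 3' end. The proteins Snu13, Nop56, Nop58 and fibrillarin (Fbl) bind these boxes, and most C/D RNAs pair with ribosomal RNA and direct fibrillarin to methylate the ribose there. Most vertebrate C/D snoRNAs lie in introns and are released from the spliced host transcript by exonucleases, which trim both ends up to the bound proteins. The nuclear RNA exosome, with EXOSC10 and DIS3 as its catalytic subunits, trims and degrades nuclear RNAs from the 3' end, snoRNA precursors included. A few members, such as U8 (Snord118) and U13 (Snord13), are transcribed from their own promoters, receive a cap and act in ribosomal RNA processing.

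RNA came from livers of C57BL/6NJ embryos at embryonic day 14.5, the stage at which the liver is the main site of red cell formation, and the study asked which coding and non-coding genes DIS3 and EXOSC10 regulate as erythroid cells mature. Wild-type (WT) and knockout (KO) embryos came from a line for DIS3 and another for EXOSC10, and no treatment was given in the labels. Per the labels, each genotype gave 4 libraries of total fetal liver and 3 of each of the populations S0, S1, S2, S3 and S4+S5, which were sorted on CD71 and Ter119, surface markers of the erythroid series. The labels do not name the allele, the promoter or cell type that drives the deletion, or whether replicates were separate embryos, so p-values measure only the spread between these samples, which may be technical. The counts of 24 of 84 replicate pairs agreed within sampling noise (chi-square per degree of freedom 1.077 to 1.327, against 2.798 to 20.293 in the other pairs), and such libraries were summed and counted as 1 sample. This left 52 samples: 2 per genotype in every sorted population, 4 WT and 2 KO for DIS3 total liver, and 3 WT and 3 KO for EXOSC10 total liver. Summed samples are named by their replicate numbers, as in replicate 1-3.

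The sequences of some of the members on which the results turn are given here from 5' to 3', in the DNA alphabet of the GENCODE M21 transcripts on GRCm38, with the first TGATGA and the last CTGA within the final 15 bases in capitals, as the letters of box C and box D. Snord118 (U8, chr11:69073427-69073561, plus strand, 135 bases) has no annotated host gene, and its TGATGA lies well inside the RNA. Snord17 (chr2:144265979-144266216, minus strand) is the longest member at 238 bases and lies in an intron of Snx5, 3954 bases from the next exon. Snord7 (chr11:83294304-83294400, plus strand, 97 bases) lies in the non-coding gene AA465934. Snord69 (chr14:31014287-31014366, minus strand, 80 bases) lies wholly within an annotated exon of Gnl3. Snord34 (chr7:45126601-45126670, minus strand, 70 bases), in an intron of Rpl13a, is shown as a member without an exact TGATGA.
Snord118: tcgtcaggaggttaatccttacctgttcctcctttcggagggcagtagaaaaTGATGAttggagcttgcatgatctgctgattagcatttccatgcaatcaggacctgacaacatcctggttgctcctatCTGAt
Snord17: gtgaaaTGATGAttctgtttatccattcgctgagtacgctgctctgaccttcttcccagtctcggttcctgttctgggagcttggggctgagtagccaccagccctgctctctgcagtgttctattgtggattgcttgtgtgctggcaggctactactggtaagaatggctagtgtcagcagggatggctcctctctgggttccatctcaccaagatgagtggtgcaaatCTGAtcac
Snord7: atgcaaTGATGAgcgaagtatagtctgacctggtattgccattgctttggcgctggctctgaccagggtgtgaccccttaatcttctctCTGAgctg
Snord69: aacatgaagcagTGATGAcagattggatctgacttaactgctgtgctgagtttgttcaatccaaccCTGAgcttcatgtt
Snord34: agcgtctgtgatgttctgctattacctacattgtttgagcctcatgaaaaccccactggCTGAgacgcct

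Both exact motifs were searched on the transcribed strand only. TGATGA within the first 20 bases was present in 70 of the 99 members (70.7%) and CTGA within the last 15 bases in 92 (92.9%), and 68 (68.7%) held both. Among the 42 genes of the other main snoRNA class, the H/ACA genes (symbols beginning with Snora), 0 held the first motif and 3 (7.1%) the second. Members were 64 to 238 bases long (median 84). Outside the Snord116 cluster each sequence was unique. The 17 Snord116 genes comprised 4 distinct sequences, 14 of the genes being identical.

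Whether a member had any read followed its place relative to annotated exons. Of the 37 members lying wholly within exons of another gene on the same strand, 34 were at 0 in every library and 3 had reads (Snord100, Snord69 and Snord19). All 4 members partly covered by an exon had reads, and 42 of the 58 outside exons did. The 16 members at 0 outside exons all belonged to the Snord116 cluster on chromosome 7, an imprinted set hosted by Snhg14, whose Snord116l13 had 1 read in all libraries. Outside that cluster, 41 of 41 members clear of exons had reads. The zeros included members of known role, namely Snord14c, Snord14d and Snord14e (U14, which acts in small-subunit ribosomal RNA processing), Snord15b, and Snord22 (U22). A zero here says only that no read was assigned to the gene, since the counting settings for overlapping genes and repeated sequences were not given in the sources used here. The same host could hold both kinds: Rpl13a held Snord34 with 5229 reads, Snord32a with 3144 and Snord35a with 2080 beside Snord33 with 0. No symbol began with Snord113 or Snord115.

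**Figure D1:**
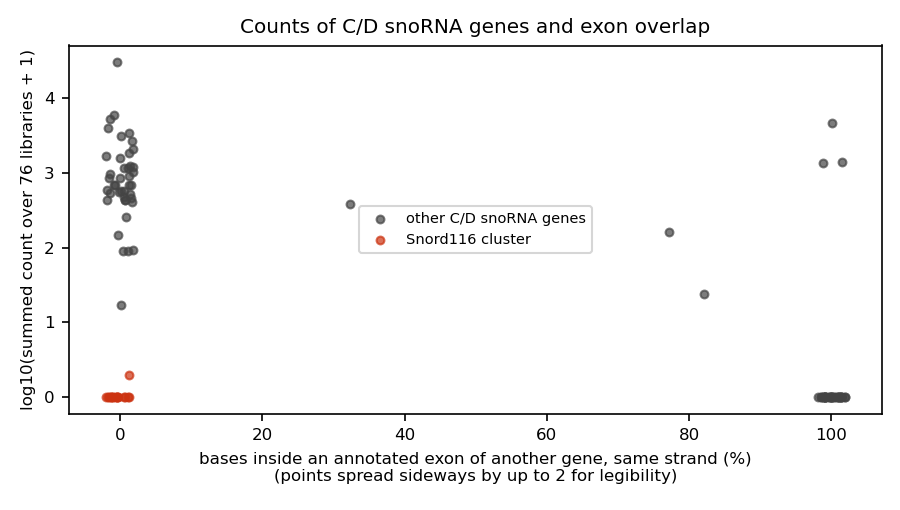
Read counts of the 99 C/D snoRNA genes over all 76 libraries (vertical axis, log scale of the count + 1) by the share of their bases inside annotated exons of another gene on the same strand (horizontal axis, none, part or all). Each point is 1 gene, and the points at 0 in the left group are the Snord116 genes.

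The 49 members with reads lay in 36 distinct hosts. Of them 14 were in ribosomal protein genes, 23 in other coding genes and 9 in non-coding genes, and 3 (Snord104, Snord118 and Snord13) had no annotated host. The distance from the 3' end of a member to the next host exon had a median of 92 bases, was between 50 and 120 bases for 27 of 46 members, and exceeded a kilobase for 6. The 49 members collected 88578 reads in all, of which Snord17 took 34.1% (30249 reads) and the 10 most read members 71.4%. The others of those 10 were Snord15a (5966 reads), Snord34, Snord100 (4638), Snord49a (4017), Snord83b (3460), Snord32a, Snord43 (2640), Snord35a and Snord65 (1834). Per kilobase of RNA the order was similar. The mean over libraries was 152.7 CPM (counts scaled to library total, without Gm26917 and Gm42418) per kilobase for Snord17, 111 for Snord34, 93.4 for Snord100, 84.9 for Snord49a and 58.1 for Snord15a. The lowest were Snord67 at 0.286, Snord123 at 0.179 and Snord116l13 at 0.015 CPM per kilobase. Length and mean CPM were nearly unrelated across members (Spearman rho -0.095 over 49 genes, which share their libraries).

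The libraries held 4662194 to 30412636 counts (median 12710434), of which Gm26917 and Gm42418, a pair of genes with very high counts, took 5.3% to 61.4%. C/D members had 185 to 2988 counts per library (median 1084.5), and 18 to 47 of the 49 were detected, so low members rest on few reads. Counts per gene do not separate mature snoRNA from precursor or host intron reads, so levels here are not levels of mature snoRNA. In the KO libraries Exosc10 fell in all 6 EXOSC10 comparisons (log2 differences of -1.90 in S0 to -0.44 in S3, edgeR quasi-likelihood test). Dis3 fell in S0, S1, S2 and S3 of the DIS3 line (-0.95, -0.66, -0.73 and -0.31) but did not pass in S4+S5 (-0.68, adjusted p = 0.134) or total liver, where WT samples were at 29.8 to 49.9 and KO samples at 31.7 to 32.4 CPM (-0.25, adjusted p = 0.245). The Y-linked gene Ddx3y was at 37.47 to 66.35 CPM in every DIS3 WT library but total replicate 3 (0.09 CPM), and at 0.35 CPM or less in every DIS3 KO library. In the sorted DIS3 populations genotype and embryo sex therefore cannot be told apart. EXOSC10 libraries had 2.03 CPM or less of Ddx3y throughout. In bulk samples, fewer cells of a type and less RNA per cell cannot be told apart either.

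The summed level of all C/D members, in CPM of a total without Gm26917 and Gm42418, was lower in S3 and S4+S5 than in S0, S1 and S2 among the WT samples of each line. It was 91.3 to 123.3 in DIS3 WT total liver and 102.3 to 117 in EXOSC10 WT total liver. Among sorted DIS3 WT samples it was 151.1 and 121.5 in S0, 182 and 188 in S1, 119.6 and 150.1 in S2, 50.3 and 57.2 in S3, and 33.5 and 49.4 in S4+S5. The genotypes overlapped in 8 of the 12 comparisons, and the widest separation was in S0 of the EXOSC10 line, with 333.8 and 193.8 in WT against 117.2 and 92.3 in KO. Without Snord17 these S0 samples were at 144.2 and 117.9 against 96.0 and 72.6, so the groups did not overlap without it either. In S1 of the EXOSC10 line WT samples were at 279 and 238.7 and KO samples at 173.1 and 184.8, and without Snord17 at 198 and 173.5 against 144.2 and 161.5. EXOSC10 S2 also separated, with 230.3 and 152.6 in WT against 135.1 and 142.2 in KO (139.9 and 127.2 against 117.3 and 120.5 without Snord17). DIS3 S3 separated the other way, with 50.3 and 57.2 in WT against 65.4 and 67.9 in KO (at most 45.7 in WT against at least 55.6 in KO without Snord17). Without Snord17 other comparisons separated too. KO samples were higher in DIS3 S2 (WT 102.9 and 114.4, KO 127.1 and 211.7) and DIS3 S4+S5 (WT 28.4 and 32.7, KO 44.5 and 37.3). They were also higher in EXOSC10 S3 (WT 52.7 and 51.3, KO 67.7 and 71.7) and EXOSC10 S4+S5 (WT 28.0 and 27.6, KO 31.1 and 32.5). In DIS3 S1 they were lower (WT 154.0 and 158.7, KO 153.2 and 146.6). DIS3 S0 and total liver of both lines overlapped with and without Snord17. No test was made of these sums. With so few samples per group, WT and KO samples can readily separate in either direction by chance alone. How often the sums of other gene sets separated was not taken. The separations, with or without Snord17, are therefore given as values only and cannot be read as effects.

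Across the 5 sorted WT populations most members that differed were highest in S1. An edgeR quasi-likelihood F test called 20 of 35 tested members in the DIS3 line, where 88.7% of all genes were called, and 25 of 39 in the EXOSC10 line, where 86.4% were. S1 held the highest mean of 17 called members in each line, and S4+S5 the lowest mean of 11 in the DIS3 line and 20 in the EXOSC10 line. The shares of all called genes highest in S1 or lowest in S4+S5 were not taken, so these counts cannot be read as particular to the members. Of 18 members called in both lines, 15 had the same highest population, which was S1 for 14. Snord100, hosted by Rps12, of the DIS3 line had means of 4.50 (S0), 8.58 (S1), 6.40 (S2), 2.98 (S3) and 2.09 CPM (S4+S5) (adjusted p = 1.26e-05). In that order Snord34 of the EXOSC10 line had 3.30, 7.60, 7.05, 4.16 and 2.50 CPM. A few members ran the other way. Snord85 was at 0.476, 0.647, 0.547, 1.79 and 4.80 CPM in the EXOSC10 line (adjusted p = 2.39e-07) and was also highest in S4+S5 in the DIS3 line (1.72 CPM, adjusted p = 0.00605). Snord7 of the EXOSC10 line was lowest in S1 (0.171 CPM) and highest in S4+S5 (1.44 CPM, adjusted p = 0.000664). Snord17 and Snord15a, the most read members, were called in neither line.

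In the DIS3 line the member with the most repeated change was Snord118, or U8, which acts in processing of the large-subunit ribosomal RNA. In total liver the 4 WT samples were at 0.696, 0.903, 1.107 and 0.658 CPM after TMM scaling, on 20, 11, 28 and 3 counts, and the 2 KO samples at 2.36 and 3.323 CPM, on 112 and 148 counts. The groups did not overlap, and Snord118 rose by 1.69 ± 0.27 on the log2 scale (SE, adjusted p = 0.000102, edgeR quasi-likelihood test). WT replicate 3, which lacks Ddx3y like the KO samples, was the highest of the 4 WT samples, at 1.107 CPM. The part of embryo sex in the Snord118 difference was not tested. The call held when each sample was left out in turn, and with DESeq2. The gene 133 bases upstream on the same strand, Tmem107, moved the other way in total liver, from 6.15 to 7.97 CPM (WT) to 4.28 to 5.57 CPM (KO) (-0.60 ± 0.17, adjusted p = 0.00689).

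In DIS3 S0 the WT samples had 0.292 and 0.452 CPM of Snord118 (6 and 8 counts) and the KO samples 1.345 and 2.176 CPM (36 and 22 counts), a log2 difference of 2.20 ± 0.65 (adjusted p = 0.0255). In S1 the WT samples had 0.369 and 0.709 CPM (11 and 5 counts) and the KO samples 1.59 and 1.206 CPM (37 and 18 counts), a difference of 1.64 ± 0.47 (adjusted p = 0.0153). In S2 the WT samples had 0.315 and 0.249 CPM (12 and 4 counts) and the KO samples 1.498 and 1.115 CPM (49 and 11 counts), a difference of 2.19 ± 0.55 (adjusted p = 0.0315). KO samples lay above WT samples in all 3 populations, whereas in S3 and S4+S5 the gene had too few reads to be tested. These 3 calls rest on few reads and were lost with DESeq2 (adjusted p = 0.0553, 0.168 and 0.0825). They were also lost without single samples: in S0 without WT replicate 1-3 (1.88, adjusted p = 0.307) or WT replicate 2 (2.53, 0.174), in S1 without WT replicate 1-3 (0.98, 0.350) or KO replicate 1-3 (1.40, 0.131), and in S2 without WT replicate 1-3 (2.38, 0.332), WT replicate 2 (2.05, 0.300) or KO replicate 1-3 (1.92, 0.061). Tmem107 was not called in S0, S1 or S2 (-0.59, 0.33 and -0.36). Cell type markers moved beside these values. In total liver the 6 hepatocyte markers rose, from a summed 44573 to 51065 CPM in WT to 99856 to 102637 CPM in KO, and the 8 erythroid markers fell, from 13314 to 15496 CPM to 5985 to 8066 CPM. In S1 hepatocyte markers summed to 5.24 to 6.44 CPM (WT) and 6.96 to 6.97 CPM (KO), none of them called, while the 4 granulocyte markers fell from 220 to 727 CPM to 3.57 to 26.2 CPM. In S0 3 of 5 tested hepatocyte markers rose, with sums of 16.9 to 17.1 CPM (WT) and 34.4 to 46.8 CPM (KO). There 5 of 7 tested erythroid markers rose too, with sums of 77.2 to 85.5 CPM and 174 to 202 CPM. The 6 B lymphoid markers fell in S0 from 172 to 214 CPM to 29.6 to 30.6 CPM, and the granulocyte markers from 2251 to 2577 CPM to 372 to 511 CPM. No granulocyte marker was at 0 in either genotype of S0 or S1. The part of cell composition in the Snord118 differences was not tested.

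**Figure D2:**
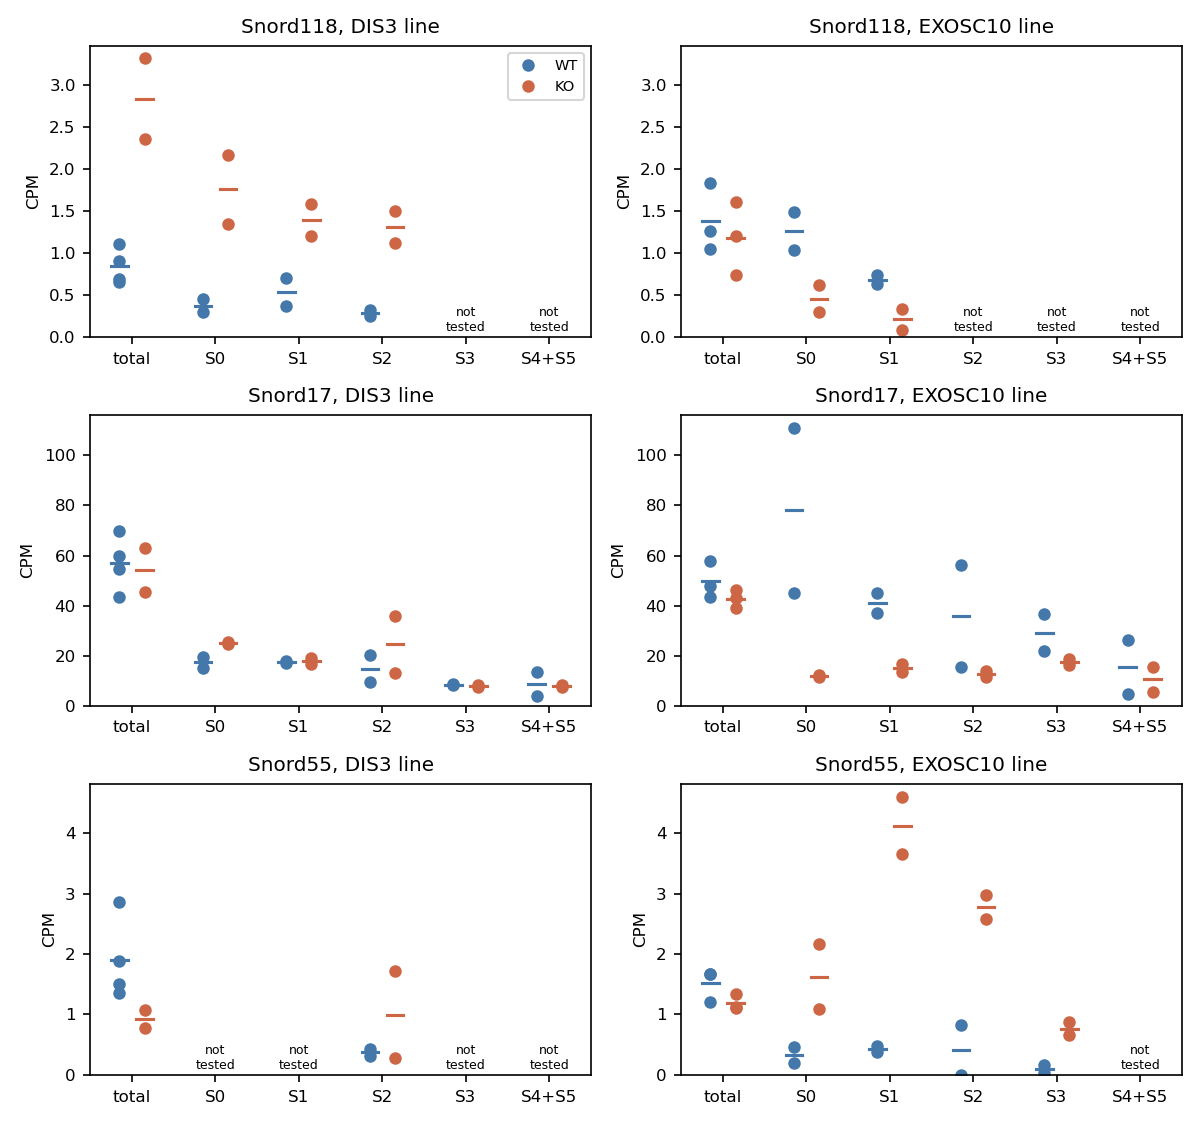
Levels of Snord118, Snord17 and Snord55 in each sample of each KO comparison, for the DIS3 line and the EXOSC10 line. The vertical axes give CPM after TMM scaling and the horizontal axis the population. Each point is 1 sample, WT and KO marked separately, with points shifted sideways only to be visible. Snord118 is higher in DIS3 KO samples of total liver, S0, S1 and S2, Snord17 lower in EXOSC10 KO samples of S0 and S1, and Snord55 higher in EXOSC10 KO samples of S0 to S3.

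In DIS3 total liver 4 of 30 tested members rose, where 26.5% of all genes tested did, and 2 fell, where 24.2% of all genes did. The median log2 difference was 0.27 over the 30 members and 0.03 over all genes. Besides Snord118, Snord37 rose, from 0.209, 0.164, 0.356 and 0.439 CPM in WT to 0.548 and 0.651 CPM in KO (1.14 ± 0.42, adjusted p = 0.0335), while its host Eef2 was not called (-0.21). Snord42a rose by 1.12 ± 0.39 (adjusted p = 0.0264), but its groups overlapped, the WT samples having 0.453, 0.246, 0.474 and 1.317 CPM and the KO samples 1.18 and 0.966 CPM. Snord42a also lies opposite a gene on the other strand, Tlcd1. Snord19, within an exon of Gnl3, rose from 0.277 to 0.487 CPM in WT to 0.738 and 0.763 CPM in KO (0.92 ± 0.36, adjusted p = 0.0464). That call was lost in each of the 6 fits that left out a sample, at 0.72 to 1.13. Snord15a (U15, a guide for large-subunit ribosomal RNA methylation) fell from 7.485, 7.141, 6.246 and 6.584 CPM to 4.173 and 4.76 CPM (-0.63 ± 0.16, adjusted p = 0.00405). Its groups did not overlap, and its host Rps3 fell too (-0.45, adjusted p = 0.00632). Snord55 fell from 1.358, 1.888, 1.502 and 2.853 CPM to 0.780 and 1.078 CPM (-0.87 ± 0.31, adjusted p = 0.0292). Over all comparisons the WT and KO samples did not overlap in 28 of the 29 calls, Snord42a here being the exception. The calls were selected by the test on these same samples, so this count adds no support to them. The share of all genes without overlap was not taken. DESeq2 did not call Snord37, Snord42a or Snord19 (adjusted p = 0.190, 0.110 and 0.220). The Snord37 call was lost without WT replicate 1 (0.95, adjusted p = 0.126), WT replicate 2 (1.01, 0.0746), KO replicate 1-3 (1.25, 0.0807) or KO replicate 2-4 (1.01, 0.15). The Snord42a call was lost without WT replicate 1 (1.05, 0.0711), WT replicate 2 (0.94, 0.0712), WT replicate 3 (1.10, 0.0614) or KO replicate 1-3 (0.96, 0.144). The Snord55 call was lost without WT replicate 2 (-0.82, 0.0633) or KO replicate 1-3 (-0.65, 0.191). With 1 fit of all samples of the line, Snord15a (-0.47, 0.346) and Snord55 (-0.76, 0.256) were not called.

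In the sorted DIS3 populations every call was a rise. In S0 3 of 39 members rose and 0 fell, against 18% and 13% of all genes. Snord13 (U13, of small-subunit ribosomal RNA processing) rose from 0.438 and 0.226 CPM to 1.532 and 1.088 CPM (1.97 ± 0.67, adjusted p = 0.0471), so that Snord118 and Snord13 made up 2 of the 3 tested members without a host. The third, Snord104, was not called in any of its 9 comparisons (-1.11 to 0.71). Snord13 was not called by DESeq2 (adjusted p = 0.151), nor without WT replicate 1-3 (2.47, 0.272), WT replicate 2 (1.57, 0.50) or KO replicate 1-3 (1.63, 0.0794). Snord17 rose from 19.67 and 15.2 CPM to 24.88 and 25.62 CPM (0.53 ± 0.16, adjusted p = 0.0296), beside a fall of its host Snx5 (-0.34, adjusted p = 0.0192), and was not called without WT replicate 2 (0.34, 0.435) or by DESeq2 (0.0619).

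In DIS3 S1 2 of 36 members rose and 0 fell, against 20.6% and 19.4% of all genes. The second was Snord93, with WT at 0.235 and 0.142 CPM (7 and 1 counts) and KO at 0.774 and 0.670 CPM (18 and 10 counts), a difference of 1.73 ± 0.58 (adjusted p = 0.0319). Its non-coding host 2700038G22Rik rose from a mean of 8.92 to 51.1 CPM (2.54, adjusted p = 1.34e-08). The Snord93 call was lost by DESeq2 (adjusted p = 0.268) and in all 4 fits that left out a sample, namely WT replicate 1-3 (2.28, 0.225), WT replicate 2 (1.62, 0.134), KO replicate 1-3 (1.62, 0.227) and KO replicate 2 (1.82, 0.0781). In S2 2 of 39 rose and 0 fell, against 10.3% and 4.8% of all genes. Snord83b, hosted by Rpl3, rose from 3.861 and 3.921 CPM to 6.143 and 12.26 CPM (1.19 ± 0.33, adjusted p = 0.0480), and the call was lost without WT replicate 1-3 (1.19, 0.130) or with RLE scaling (1.18, 0.0501). Without KO replicate 2 the difference was 0.65, still called. The median over the 39 S2 members was 0.51, with 29 of them positive, and KO replicate 2 stood apart, with a summed level of 275.5 against 149.8 in the other KO sample and 61.4% of its counts in Gm26917 and Gm42418. Leaving out KO replicate 2 gave 2 members that rose, and leaving out KO replicate 1-3 gave 13.

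In DIS3 S3 0 of 25 members were called in either direction by edgeR, against 16.3% of all genes that rose and 15.9% that fell. At an unadjusted p below 0.05 there were 5, and DESeq2 called 0. In S4+S5 2 of 11 tested members rose and 0 fell, against 23.4% and 23.7% of all genes. Snord7 rose from 0.943 and 0.25 CPM (13 and 2 counts) to 3.592 and 5.386 CPM (64 and 37 counts), by 2.72 ± 0.58 (adjusted p = 0.000787). The groups did not overlap, and the call held by DESeq2 and with each sample left out, although without WT replicate 1-3 the difference was 4.04. Its non-coding host AA465934 rose as well, from a mean of 9.15 to 57.8 CPM (2.67, adjusted p = 2.26e-09). Snord32a, hosted by Rpl13a, rose from 1.306 and 0.876 CPM to 3.143 and 2.62 CPM (1.37 ± 0.54, adjusted p = 0.0423), beside Rpl13a at 0.75 (adjusted p = 0.00862). That call was lost by DESeq2 (0.140) and without WT replicate 1-3 (1.68, 0.114), WT replicate 2 (1.13, 0.227) or KO replicate 1-3 (1.21, 0.207). In S4+S5 the 6 macrophage markers fell from a summed 212 to 291 CPM to 17.4 to 35.1 CPM and the 4 granulocyte markers from 180 to 259 CPM to 34.9 to 44.1 CPM. Of 4 megakaryocyte markers 3 rose and 1 fell, with sums of 43.6 to 98.2 CPM against 164 to 189 CPM. None of these markers was at 0 in all samples of a genotype, and their part was not tested.

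Snord17, the member with most reads and a guide for methylation of the large-subunit ribosomal RNA, was lower in KO samples of S0 and S1 of the EXOSC10 line. In S0 the WT samples were at 111 and 44.99 CPM and the KO samples at 12.27 and 11.37 CPM, a difference of -2.71 ± 0.37 (adjusted p = 0.00253). In S1 WT samples were at 45 and 36.89 CPM and KO samples at 16.8 and 13.47 CPM (-1.46 ± 0.13, adjusted p = 1.97e-08). The groups did not overlap in either population, and both calls held with DESeq2 and with each sample left out. With 1 fit of all samples of the line the S1 call was lost (-1.44, adjusted p = 0.0699). Without WT replicate 1, the sample at 111 CPM, the S0 difference was -1.95. In S2 the values were 56.11 and 15.62 CPM in WT against 11.5 and 14.04 CPM in KO, which did not pass (-1.43 ± 0.52, adjusted p = 0.0869), and the lower WT sample was close to the KO samples. Without WT replicate 1 the S2 difference was -0.30 (adjusted p = 0.514), and without WT replicate 2-3 it was -2.13 and passed. In S3 WT samples were at 36.76 and 21.84 CPM and KO samples at 18.88 and 16.42 CPM (-0.69 ± 0.19, adjusted p = 0.0134). This call was lost by DESeq2 (0.180) and without WT replicate 1 (-0.32, 0.0992), KO replicate 1 (-0.77, 0.0851) or KO replicate 2-3 (-0.56, 0.0754). In total liver (WT 47.87, 57.82 and 43.57 CPM, KO 46.22, 39.07 and 43.18 CPM) and S4+S5 (WT 26.35 and 4.951 CPM, KO 5.587 and 15.56 CPM) the groups overlapped. The host Snx5 changed less, at -0.42 in S0 (adjusted p = 0.0290) and 0.06, 0.09 and 0.07 in S1, S2 and S3.

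Among WT samples of S0, S1 and S3, the higher Snord17 values were in the EXOSC10 line. Within that line WT replicate 1 was above WT replicate 2-3 in every sorted population. Scaled over these populations, they had 86.5 and 34.9 CPM in S0, 39.0 and 32.9 in S1, and 46.7 and 13.4 in S2. In S3 they had 42.4 and 26.9 CPM, and in S4+S5 46.2 and 8.62. The labels do not say whether same-numbered samples share an embryo, so the populations may not be independent. A comparison of the WT samples of both lines, chosen after seeing these data, gave mean levels of 82.6 CPM in the EXOSC10 line and 16.7 CPM in the DIS3 line in S0 (log2 difference 2.28 ± 0.31, adjusted p = 0.00386, and 1.51 without EXOSC10 WT replicate 1). It gave 42.7 and 16.8 CPM in S1 (1.34 ± 0.13, adjusted p = 5.69e-06) and 29.9 and 8.28 CPM in S3 (1.81 ± 0.19, adjusted p = 2.92e-05). S2 (33.9 and 15.6 CPM, adjusted p = 0.749), S4+S5 (15.6 and 8.87 CPM, adjusted p = 0.718) and total liver (47.3 and 59.7 CPM, adjusted p = 0.0715) did not pass. In the fits of all 4 groups the KO means were 12.4 CPM in the EXOSC10 line and 23.7 CPM in the DIS3 line in S0, and 15.8 and 17.2 CPM in S1. The EXOSC10 WT mean was the highest of the 4 groups in both populations. Line and any difference in the preparation of the lines cannot be told apart. In the sorted WT samples embryo sex cannot be told apart from line either. There Ddx3y was high in every DIS3 library and low in every EXOSC10 library. Marker values also moved in EXOSC10 S0: 4 of 5 tested hepatocyte markers rose, from 24.0 to 33.6 CPM to 60.5 to 909 CPM, and 5 of 6 B lymphoid markers fell, from 176 to 184 CPM to 18.2 to 28.6 CPM. In EXOSC10 S1 the 4 granulocyte markers fell from 207 to 485 CPM to 3.47 to 17.1 CPM. No marker of these lists was at 0 in all S0 samples of a genotype. Their part in the Snord17 differences was not tested.

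Snord55, a methylation guide, moved the other way in the same KO populations. In EXOSC10 S1 the WT samples had 0.470 and 0.384 CPM (6 and 15 counts) and the KO samples 4.591 and 3.653 CPM (41 and 90 counts), so that Snord55 rose by 3.28 ± 0.42 (adjusted p = 2.58e-06). The groups were far apart, and the call held with DESeq2 and with each sample left out. In S3 the WT samples had 0.171 and 0.0343 CPM (2 and 1 counts) and the KO samples 0.875 and 0.657 CPM (12 and 13 counts), a difference of 3.21 ± 0.76 (adjusted p = 0.00572). That call was lost without WT replicate 2-3 (2.09, adjusted p = 0.271) and with DESeq2 (0.0560), and without WT replicate 1 the difference was 4.24. In S0 (WT 0.458 and 0.200 CPM, KO 2.16 and 1.084 CPM, on 4, 5, 28 and 33 counts) the difference of 2.43 ± 0.72 did not pass (adjusted p = 0.0592). In S2 (WT 0.824 and 0 CPM, KO 2.58 and 2.973 CPM, on 11, 0, 24 and 36 counts) the difference of 3.15 ± 0.97 did not pass either (adjusted p = 0.0523), although it did with RLE scaling (0.0461). In both populations KO samples lay above WT samples. In EXOSC10 total liver the 3 WT samples had 1.205, 1.671 and 1.673 CPM of Snord55 and the 3 KO samples 1.099, 1.131 and 1.339 CPM, with overlapping groups (-0.39, adjusted p = 0.147).

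Across EXOSC10 S0 0 of 38 members rose and 3 fell, against 8.84% and 4.63% of all genes, and 32 of the 38 were negative, with a median of -0.50 (0.00 over all genes). Snord49a, in the non-coding host 2410006H16Rik, fell from 6.41 and 6.37 CPM to 2.623 and 1.938 CPM (-1.51 ± 0.31, adjusted p = 0.0163), beside its host at -1.05 (adjusted p = 0.0555). That call was lost without WT replicate 2-3 (-1.51, adjusted p = 0.101). Snord69, a methylation guide in Gnl3, fell from 1.488 and 2.804 CPM to 0.694 and 0.460 CPM (-1.99 ± 0.55, adjusted p = 0.0474). It was not called by DESeq2 (0.0920), nor without WT replicate 1 (-2.33, 0.0689), WT replicate 2-3 (-1.39, 0.651) or KO replicate 2-3 (-1.71, 0.0844). In the fit without KO replicate 1 the count of members that fell was 9. In S1 1 of 38 members rose and 3 fell, against 15.2% and 15.5% of all genes, and 31 were negative (median -0.36). Snord69 fell there from 3.92 and 3.584 CPM to 1.12 and 1.948 CPM (-1.18 ± 0.34, adjusted p = 0.0105), with Gnl3 at -0.08, and was not called by DESeq2 (0.0577) or without WT replicate 1 (-1.13, 0.0503). Snord118 fell from 0.627 and 0.742 CPM (8 and 29 counts) to 0.336 and 0.0812 CPM (3 and 2 counts), by 2.13 on the log2 scale (SE 0.77, adjusted p = 0.0401), which did not hold with DESeq2 (0.297) or without WT replicate 1 (-2.17, 0.157) or KO replicate 2-3 (-1.04, 0.499), and stood at -3.03 without KO replicate 1. In this population 5 of 7 tested erythroid markers rose, from a summed 491 to 531 CPM to 835 to 841 CPM, and of 4 progenitor markers 3 fell and 1 rose, with sums going from 519 to 539 CPM to 295 to 298 CPM. Their part was not tested.

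In EXOSC10 total liver 3 of 29 members rose and 0 fell, against 31.4% and 31% of all genes. Snord59a, in Atp5b, rose from 0.262, 0.304 and 0.343 CPM to 0.550, 0.696 and 0.870 CPM (1.12 ± 0.33, adjusted p = 0.00999). Snord66, in Eif4g1, rose from 0.419, 0.304 and 0.279 CPM to 0.592, 0.783 and 0.603 CPM (1.05 ± 0.33, adjusted p = 0.0142). Neither member's groups overlapped. Snord69 rose here, from 1.047, 0.911 and 1.094 CPM to 1.649, 1.479 and 2.276 CPM (0.77 ± 0.23, adjusted p = 0.0123). DESeq2 called Snord69 but not Snord59a (0.0571) or Snord66 (0.100). Snord66 was lost without WT replicate 3-4 (0.87, 0.0921) or KO replicate 2-4 (0.89, 0.0684), and Snord69 without KO replicate 3 (0.60, 0.0557). With 1 fit of all samples of the line none of the 3 was called (adjusted p = 0.128 for Snord59a, 0.0747 for Snord66 and 0.141 for Snord69). Beside these values the 6 hepatocyte markers rose, from a summed 29560 to 37648 CPM in the WT samples to 52113 to 71112 CPM in the KO samples, and the 8 erythroid markers fell, from 9159 to 9935 CPM to 3592 to 4893 CPM. None of these markers was at 0 in all samples of a genotype, and their part was not tested.

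In EXOSC10 S3 3 of 26 members rose and 1 fell, against 16.8% and 17.2% of all genes, and 20 were positive (median 0.40). Beside Snord55, Snord69 rose from 0.855 and 0.618 CPM to 1.603 and 1.667 CPM (1.21 ± 0.41, adjusted p = 0.0377), with its host at 0.76 (adjusted p = 1.09e-05), and Snord32a rose from 1.453 and 1.888 CPM to 3.061 and 3.537 CPM (0.94 ± 0.29, adjusted p = 0.0230), with Rpl13a at 0.18. DESeq2 called neither (0.200 and 0.119). The Snord69 call in S3 was lost in each of the 4 fits that left out a sample, at 0.93 to 1.39. That of Snord32a was lost without WT replicate 1 (0.81, 0.131), WT replicate 2-3 (1.18, 0.0524) or KO replicate 2-3 (0.83, 0.0860). Of the 6 tested macrophage markers 5 fell in S3, from a summed 17.2 CPM or more in the WT samples to 4.85 CPM in the lower KO sample, and their part was not tested. Snord69 was lower in KO samples of S0 and S1 and higher in those of S3 and total liver.

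In EXOSC10 S2 0 of 32 members were called by edgeR, with 5 at an unadjusted p below 0.05 and 0 by DESeq2, against 11.6% of all genes that rose and 9.86% that fell. In S4+S5 0 of 19 were called by edgeR, with 1 at an unadjusted p below 0.05 and 0 by DESeq2, against 7.63% and 7.52% of all genes.

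**Figure D3:**
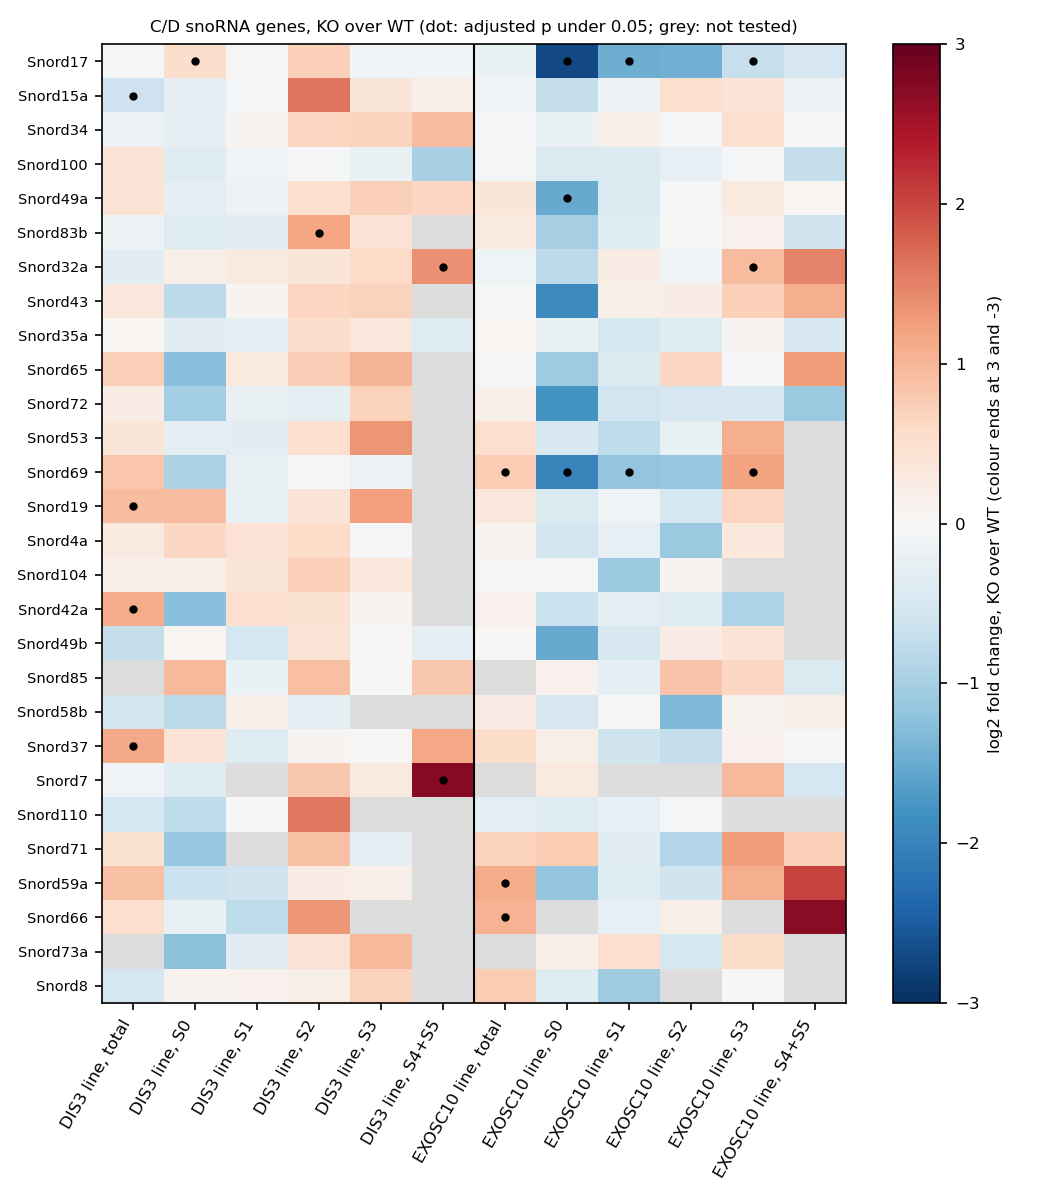
Log2 difference of KO from WT (colour scale) for the 28 C/D snoRNA genes tested in at least 8 of the 12 KO comparisons (rows), with the comparisons as columns. Marked cells passed the adjusted p threshold of 0.05 and empty cells were not tested. The EXOSC10 columns of S0 and S1 hold mostly negative values, with Snord17 among the lowest.

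Members and hosts were then set side by side. In 23 of the 29 calls the host was tested, and it was called in the same direction in 9 and not called in 12. Across tested members the Spearman correlation between the log2 difference of a member and that of its host was 0.40 in DIS3 total liver (27 members), 0.54 in EXOSC10 total liver (26), 0.44 in EXOSC10 S0 (35) and 0.16 in EXOSC10 S1 (35), with members of 1 host sharing its value. In EXOSC10 S0 11 of 27 hosts fell and 0 rose (median -0.41), where 4.63% of all genes fell, beside the median of -0.50 for members. In EXOSC10 S1 5 of 26 hosts rose and 0 fell, where 15.2% of all genes rose and 15.5% fell. The median was 0.07 over these hosts and -0.36 over the members. In EXOSC10 total liver 11 of 19 hosts fell and 1 rose, where 31% of all genes fell and 31.4% rose. By host kind, the S0 medians in the EXOSC10 line were -0.55 for 13 members in ribosomal protein genes, -0.45 for 17 in other coding genes, -1.23 for 5 in non-coding genes and -0.42 for 3 without a host.

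**Figure D4:**
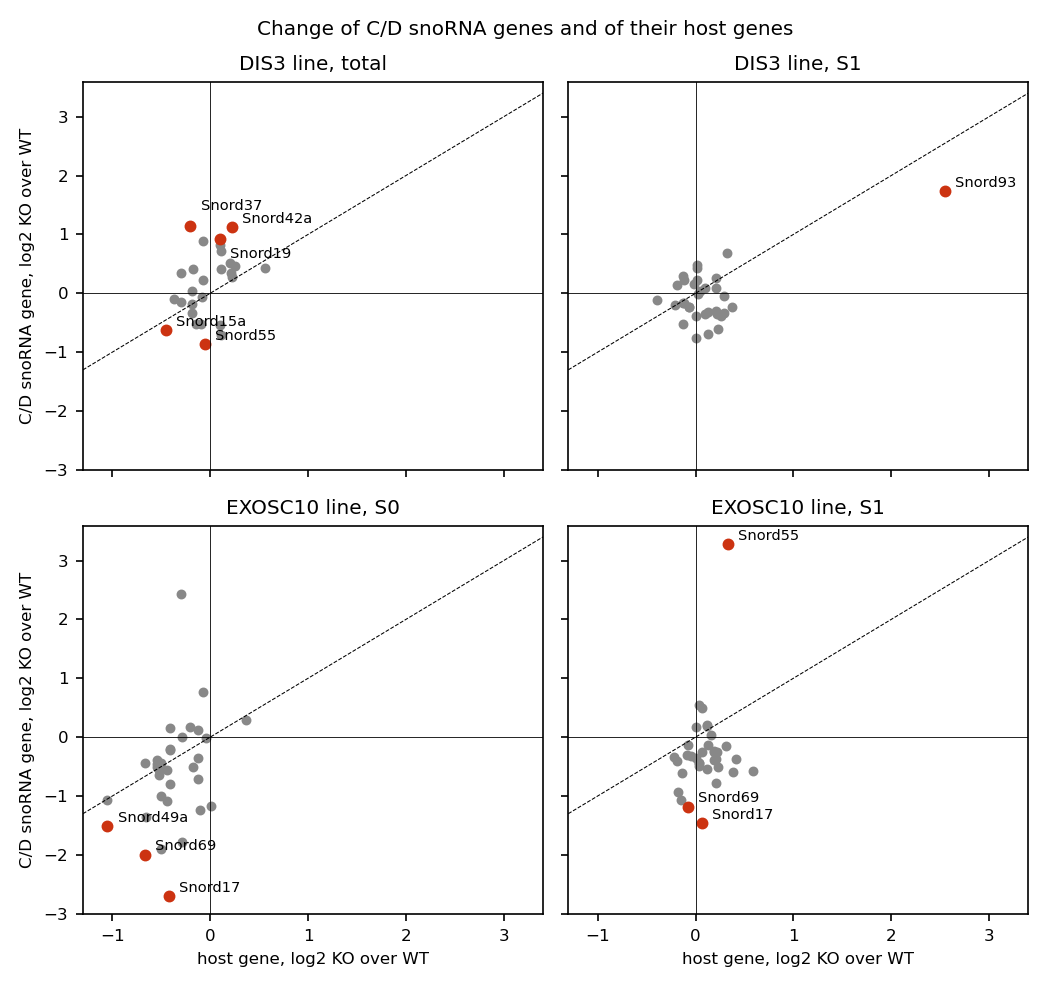
Log2 difference of KO from WT of each C/D snoRNA gene (vertical axis) against that of its host gene (horizontal axis), in DIS3 total liver, DIS3 S1, EXOSC10 S0 and EXOSC10 S1. Each point is 1 member, those that passed the test are red, and the dashed line marks equal change. In EXOSC10 S1 most members lie below the line.

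The KO effects of the lines were compared directly by an interaction test, which takes the EXOSC10 effect minus the DIS3 effect. For Snord118 the difference was -1.86 ± 0.43 in total liver (adjusted p = 0.0386), -3.70 ± 0.98 in S0 (0.0403) and -3.77 ± 0.89 in S1 (0.0217). For Snord17 it was -3.22 ± 0.45 in S0 (adjusted p = 0.00116) and -1.51 ± 0.19 in S1 (6.65e-05), and for Snord55 3.13 ± 0.72 in S1 (0.0172). Of all genes tested, 0.441% were called higher and 0.578% lower in total liver, 3.92% and 3.33% in S0, and 0.822% and 3.2% in S1. These calls were 1 of 34 members tested in total liver, 2 of 42 in S0 and 3 of 39 in S1. No other member was called in these populations by edgeR. In S2, S3 and S4+S5 edgeR called 0 of 37, 28 and 22 members, with 6, 2 and 1 at an unadjusted p below 0.05 and 0 by DESeq2, against 0.413% higher and 1.8% lower of all genes in S2, 0.414% and 0.997% in S3, and 3.5% and 3.51% in S4+S5. The Snord17 differences held with each sample left out, and that in S0 was -2.45 without EXOSC10 WT replicate 1. Those of Snord118 were lost in 9 of 12 such fits in total liver (-2.20 to -1.57), 6 of 8 in S0 (-4.22 to -3.15) and 5 of 8 in S1 (-4.67 to -2.68), and that of Snord55 in 4 of 8 (2.79 to 3.88). In S1 the Snord118 difference was also not called by DESeq2 (0.140).

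The H/ACA genes, the other main class of small RNAs that lie mostly in introns, had a median of -1.14 in EXOSC10 S0, where 3 of 16 fell, 0 rose and 15 were negative (4.63% of all genes fell and 8.84% rose). In EXOSC10 S1 3 of 16 fell (median -0.54), against 15.5% of all genes. Genes of the C/D particle and its processing changed in several comparisons. The shares to read their counts against are 4.63% of all genes that fell in EXOSC10 S0, 15.2% that rose in EXOSC10 S1, 16.8% that rose and 17.2% that fell in EXOSC10 S3, 31% that fell in EXOSC10 total liver and 23.7% that fell in DIS3 S4+S5. Of the 4 core proteins, 3 fell in EXOSC10 S0 (Nop58 -0.44, Nop56 -0.54 and Snu13 -0.57), and 3 rose in EXOSC10 S3 (Nop58 0.53, Nop56 0.46 and Fbl 0.81). Of the 7 tested genes of particle assembly, 3 rose in EXOSC10 S1 (Ruvbl2 0.53, Ruvbl1 0.41 and Nufip1 0.41), 4 fell in EXOSC10 total liver and 3 fell in DIS3 S4+S5 (Znhit6 -2.48, Nufip1 -2.11 and Ruvbl2 -1.10). Of the 12 tested genes of 3' end trimming, tailing and exosome adaptors, which include the targeted genes, 7 fell and 0 rose in EXOSC10 total liver, among them the helicase gene Mtrex (-0.38). Zcchc8, of a nuclear exosome adaptor, fell in S3 of the DIS3 line (-0.52, where 15.9% of all genes fell) and of the EXOSC10 line (-0.40), and the poly(A) polymerase gene Tent4a fell there too (-0.47 in each). Of the 7 cap, transport and Cajal body genes, 4 fell in EXOSC10 total liver and 4 in DIS3 S4+S5. The ribosomal RNA transcription factor gene Rrn3 and the U3 particle gene Rrp9 rose in S1 of both lines, by 0.45 and 0.44 in the DIS3 line (where 20.6% of all genes rose) and 0.49 and 0.56 in the EXOSC10 line.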

How the data were processed

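The authors deposited raw gene counts, 1 table per library, as the whole numbers and unequal totals show. Per the submitters' processing notes these involved HISAT2 2.1.0, Subread, featureCounts 1.6.4, R 3.5.1, DESeq2 1.20.0 and GRCm38. Strand, multimapping and overlap settings and the annotation release were not given in the sources used here. Per the labels' protocols, RNA was isolated with 2 kits that are not assigned to samples, and libraries were stranded total RNA after ribosomal RNA depletion.

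Of 49585 gene IDs, 49326 received a GENCODE M21 symbol. Replicate libraries whose counts gave a chi-square per degree of freedom under 1.5 (genes with 20 or more counts in the pair, without Gm26917 and Gm42418) were summed. KO and WT samples of each line and population were compared with edgeR 4.0.16 (quasi-likelihood test, TMM scaling, filterByExpr, no block; R 4.3.3), with Benjamini-Hochberg adjustment over all genes tested and a threshold of 0.05. Adjusted p-values are from this test unless another is named, and ± gives a standard error. Levels in CPM are TMM-scaled within each comparison, except summed and per-kilobase levels, whose total leaves out Gm26917 and Gm42418. The 5 sorted WT populations were compared by an F test and the KO effects of the lines by an interaction term. Alternatives were DESeq2 1.42.0, RLE scaling, no filter, every library as its own sample, 1 fit of each line, leaving out Gm26917 and Gm42418, a replicate block, and leaving out each sample. The procedure was tested on simulated data. Hosts are same-strand genes spanning a member.

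Named members were the called ones (at most 6 per direction and comparison), the 10 with most reads, members of fixed role, and their hosts; others named here were chosen after their values were seen. The symbol rule uses no measured value, but this gene class and the lists were chosen with earlier results of these data known.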

Additional observations from a re-analysis of the deposited data

Results flagged for a closer look

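The KO effect differed between the lines, by the interaction test, for 3 members in 6 cases, with 34, 42 and 39 members tested in total liver, S0 and S1. For Snord118 the EXOSC10 effect minus the DIS3 effect was -1.86 in total liver, -3.70 in S0 and -3.77 in S1. For Snord17 it was -3.22 in S0 and -1.51 in S1. For Snord55 it was 3.13 in S1. Only the Snord17 differences held with each sample left out, and the shares of all genes called are given with the interaction test above. Cell type markers differ between genotypes in both lines and the Y-linked gene Ddx3y in the DIS3 line, and their part in these values was not tested.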

How the results depend on the processing

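Of the 29 calls, 28 held with RLE scaling, 29 without Gm26917 and Gm42418, 26 with no filter, 16 with 1 fit of each line and 10 with DESeq2. All 25 that were tested with every library as its own sample held, and 7 held in every fit that left out a sample. Counting near-identical libraries as separate samples narrows the spread within groups, so a call that held in that setting gains no support from it. Depth was low, and 17 of 29 calls had fewer than 50 counts in the lower group. The cause of the differences between settings was not tested. With DESeq2 the members that rose were 1 in DIS3 total liver, 0 in S0, 0 in S1, 1 in S2 and 1 in S4+S5, and 1 in EXOSC10 total liver and 0 in S3. Those that fell were 1 in EXOSC10 S1 and 0 in S3, and 1 was lower in the line difference in S1. RLE scaling gave 1 that rose in DIS3 S2 and 1 in EXOSC10 S2, and leaving out Gm26917 and Gm42418 gave 1 in EXOSC10 S2. With every library as its own sample, 4 fell in DIS3 S0, and 1, 4 and 4 rose in S1, S2 and S3. In the EXOSC10 line 11 fell and 1 rose in S0, 2 fell and 1 rose in S2, 2 fell in S3 and 1 rose in S4+S5. The line difference gave 1 higher and 4 lower in S0, 1 lower in S2 and 1 lower in S4+S5. With no filter, 1 fell in DIS3 S0, 1 rose in S1 and 4 rose in S2. EXOSC10 comparisons gave 5 that fell and 1 that rose in S0, 4 fell and 1 rose in S2 and 1 fell in total liver, and the line difference gave 2 lower in S2 and 1 in S4+S5. With 1 fit of each line, 0 fell in DIS3 total liver, 2 fell in S0, 1 rose in S1 and 3 fell in S4+S5. In the EXOSC10 line 0 rose in total liver, 1 rose in S0, 0 fell in S1, 1 rose in S2, 0 fell and 1 rose in S3, and 4 fell and 2 rose in S4+S5.

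Deviations of same-numbered WT and KO libraries from their group means had correlations of -0.147 to 0.101. In S2 of both lines each WT library correlated best with the KO library of its own number (0.0290 to 0.0841). With so few samples per group this check cannot exclude a pairing by number. With the replicate block, 1 fell in DIS3 S0, and 5, 1 and 1 rose in S2, S3 and S4+S5, while in EXOSC10 S2 1 fell and 1 rose. With the block and every library as its own sample, 2 fell in DIS3 S0, and 1, 7 and 4 rose in S1, S2 and S3. EXOSC10 S0 gave 9 that fell and 1 that rose, and S2 gave 3 and 1. Snord17 changed sign in S4+S5 of the DIS3 line with the block (0.12), with every library as its own sample (0.090) and with both (0.28), in S4+S5 of the EXOSC10 line (0.0085 with every library as its own sample, 0.44 with the block as well), and in DIS3 total liver with 1 fit of the line (0.10). The median log2 difference of all genes stood beyond 0.1 with 1 fit of each line in DIS3 total liver (0.202) and S4+S5 (-0.139) and EXOSC10 total liver (0.135) and S4+S5 (-0.189), and with no filter in DIS3 total liver (0.136) and EXOSC10 S4+S5 (-0.202).

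Leaving out each sample in turn gave 1 to 3 members that rose and 1 to 3 that fell in DIS3 total liver, 0 to 4 and 0 to 4 in S0, 0 to 1 that rose in S1, 0 to 13 and 0 to 1 in S2, 0 to 1 that rose in S3, and 1 to 3 and 0 to 1 in S4+S5. In the EXOSC10 line it gave 2 to 3 and 0 to 1 in total liver, 0 to 1 and 1 to 9 in S0, 1 to 1 and 1 to 3 in S1, 0 to 1 and 0 to 3 in S2, 0 to 3 and 0 to 1 in S3, and 0 to 3 and 0 to 4 in S4+S5. The line difference gave 0 to 1 lower in total liver, 1 to 4 in S0, 1 to 2 in S1 (with 0 to 1 higher), 0 to 5 in S2, 0 to 1 in S3 and 0 to 2 in S4+S5. WT populations gave 17 to 21 called members in the DIS3 line and 22 to 30 in the EXOSC10 line. Directions that turned when a sample was left out were those of Snord17 in DIS3 total liver (-0.31 to 0.15, with 0.03 without WT replicate 4), S1 (-0.060 to 0.11, with -0.017 without WT replicate 1-3), S2 (-0.12 to 1.37), S3 (-0.15 to 0.016) and S4+S5 (-0.80 to 0.95), in EXOSC10 S4+S5 (-1.48 to 1.09) and between the WT samples of the lines in S2 (-0.051 to 1.80) and S4+S5 (-0.80 to 1.99), of Snord55 in DIS3 S2 (-0.38 to 2.26), and of Snord118 in EXOSC10 total liver (-0.50 to 0.12, with 0.058 without WT replicate 1). None of these passed in the comparison as reported.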
